A study of Mus musculus with 32 samples.

Results

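Dbp, Tef, Hlf and Nfil3 encode the 4 basic leucine zipper transcription factors that bind the D-box, a DNA element of many clock-controlled genes. They were taken by name from a table of read counts from mouse photoreceptors, the light-sensing cells of the retina. All 4 were among the 17871 genes with enough counts to be tested, of 54232 gene identifiers in the table. Photoreceptors were collected by laser capture microdissection from snap-frozen eyes of 6-week-old male mice of the mixed strain C57BL/6/J x 129 SvEvBrd. One set of mice carried the Per1-/- and Per2Brdm1 alleles together and is called KO here. The other set was wild type and is called WT. Eyes of each genotype were taken at circadian times CT19, CT22, CT1 and CT10, chosen around the daily peak of outer segment phagocytosis. This gives 8 groups of 4 libraries, 32 in all. The labels name no difference between the genotypes other than the Per alleles, which the mice carried in every cell, so the clock outside the photoreceptors was also mutant. The title of 1 WT library at CT1, replicate 5, carries a pair of animal numbers, and the title of 1 WT library at CT10, replicate 5, carries an R where the others carry an L. Beyond the numbers in the titles, nothing in the labels says that libraries came from separate animals, so p-values measure the spread between these libraries.

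DBP, TEF and HLF form the PAR-domain family and activate transcription from the D-box. NFIL3, also called E4BP4, binds the same element and represses it. In the mammalian clock, CLOCK and BMAL1 (encoded by Arntl) drive E-boxes in genes such as Dbp, the PER and CRY proteins repress that drive, and the nuclear receptors REV-ERB and ROR act on ROR elements such as those of Nfil3. PER1 and PER2 are therefore repressors upstream of the PAR family, which is the setting of the comparison between KO and WT.

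The windows of 250 bases before the RefSeq transcription starts of the 4 genes (build GRCm38.p6) are given first, because these regions carry the elements through which clock factors are known to act. Each motif was searched on both strands, and capitals below mark each match. The letters searched were CACGTG for the E-box, CACGTT for an E-box-like element, TTANNTAA for the core of the D-box, TNGGTCA for the core of the ROR element and TGACGTCA for the cAMP element. None of the matches found overlapped another. Of 32851 mouse promoter windows of this length, 6.02% held CACGTG, 3.85% CACGTT, 5.43% TTANNTAA, 9.19% TNGGTCA and 1.55% TGACGTCA. Tef has 2 such windows and was the only one of the 4 genes with an E-box in any window, and it had one in each. Counts per gene do not separate its starts.
Tef first start, E-box at position -127, chr15:81802534-81802563, plus strand: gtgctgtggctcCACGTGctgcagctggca
Tef first start, D-box core at position -174, chr15:81802488-81802517, plus strand: cctttgcaaagTTAGATAAcaggccgggtt
Tef second start, E-box at position -138 and ROR element core on the opposite strand at position -219, chr15:81811164-81811413, plus strand: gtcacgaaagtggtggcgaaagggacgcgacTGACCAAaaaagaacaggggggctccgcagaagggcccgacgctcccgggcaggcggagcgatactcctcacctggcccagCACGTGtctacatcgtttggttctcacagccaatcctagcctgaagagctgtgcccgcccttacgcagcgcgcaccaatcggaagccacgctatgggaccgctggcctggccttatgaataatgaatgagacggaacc
Hlf, cAMP element at position -9, chr11:90390918-90391167, minus strand: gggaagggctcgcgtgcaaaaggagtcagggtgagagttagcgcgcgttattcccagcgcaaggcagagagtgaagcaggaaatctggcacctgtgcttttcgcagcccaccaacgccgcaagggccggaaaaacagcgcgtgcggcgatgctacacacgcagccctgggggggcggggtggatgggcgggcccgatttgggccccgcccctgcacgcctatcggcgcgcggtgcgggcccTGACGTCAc
Nfil3, ROR element core on the opposite strand at position -12, chr13:52981040-52981069, minus strand: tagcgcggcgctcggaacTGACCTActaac
Positions count backwards from the start and give the first base of the match on the gene's strand. The Dbp window held none of the 5 motifs, which says only that these letters are not in that window. Some windows overlapped annotated exons, since annotated starts of the same gene lie further upstream. Exons of Dbp covered 159 of the 250 bases of its window. Those of Nfil3 covered 34 bases of its window, including the ROR element core. The first Tef window overlapped annotated exons of Tef and of Gm17597, a gene antisense to it. The second Tef window and the Hlf window held no annotated exon bases. These matches are descriptions of the reference sequence, and binding was not measured.

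The KO photoreceptors had more RNA of all 3 activators and less of the repressor than WT photoreceptors, at every one of the 4 times. Averaged over the times, Dbp was 3.55-fold higher, Hlf 2.30-fold higher and Tef 2.25-fold higher in KO, and Nfil3 was 2.74-fold lower. For each of the 4 genes, the 16 KO libraries and the 16 WT libraries did not overlap. Of all tested genes, 0.364% had every KO library above every WT library and 0.112% had every KO library below. Within each genotype the 4 genes differed less between times than between genotypes. Values are CPM, reads per 1000000 reads counted, scaled by the trimmed mean of M-values (TMM), and a gene was called where the adjusted p of edgeR's quasi-likelihood test, with Benjamini-Hochberg adjustment over all tested genes, was under 0.05.

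**Figure D1:**
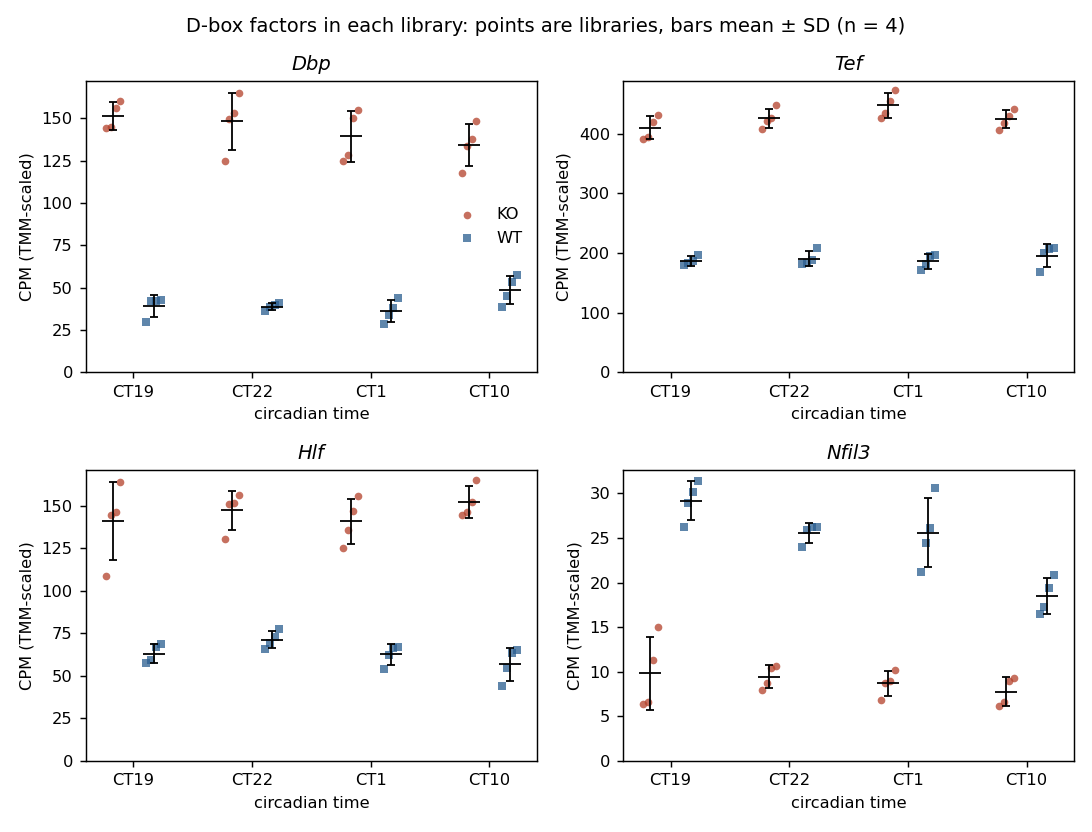
Level of each D-box factor (TMM-scaled CPM, y axis) against circadian time (x axis), with 1 point per library (KO circles left of WT squares) and bars for the mean ± SD of 4 libraries. Every KO point lies above every WT point for Dbp, Tef and Hlf, and below every WT point for Nfil3, whose KO libraries at CT19 spread between 6.42 and 14.98 CPM.

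Dbp (ENSMUSG00000059824, chromosome 7, 45705088 to 45710203 of GRCm38, plus strand) encodes the family member classically known for large daily swings in liver and other tissues. At CT19 it had 144, 145, 156 and 160.4 CPM in KO libraries, against 29.7, 41.7, 42.3 and 42.7 CPM in WT libraries. At CT22 it had 125, 149.8, 153 and 165 CPM in KO libraries, against 36.2, 38.6, 39.4 and 40.7 CPM in WT libraries. The groups were far apart at both times, and 1 WT library at CT19, replicate 3, lay below the other 3. At CT1 the KO libraries had 125, 128, 150.1 and 155 CPM, against 28.7, 33.6, 38.0 and 43.8 CPM in WT libraries. At CT10 they had 118, 133, 138 and 148 CPM, against 38.7, 44.8, 53.0 and 57.7 CPM in WT libraries. CT10 was thus the time with both the lowest KO mean and the highest WT mean of Dbp. Over all times Dbp averaged 143 ± 14.1 CPM in KO and 40.6 ± 7.42 CPM in WT libraries (SD, n = 16 each), a log2 fold change of 1.83 (SE 0.063, adjusted p = 7.17e-20). At the single times the log2 fold change of Dbp was 1.95 at CT19 (SE 0.128), 1.94 at CT22 (SE 0.127) and 1.95 at CT1 (SE 0.128), with 1.47 at CT10 (SE 0.125). These fold changes at single times had adjusted p-values between 5.98e-12 and 1.65e-09.

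Tef (ENSMUSG00000022389, chromosome 15, 81802421 to 81826863, plus strand) encodes thyrotroph embryonic factor, the one of the 4 factors with the smallest spread within groups. At CT19 it had 392, 395, 421 and 432 CPM in KO libraries, against 179, 182, 187 and 197 CPM in WT libraries. At CT22 it had 409, 421, 426 and 447 CPM in KO libraries, against 181, 183, 188 and 208 CPM in WT libraries. Libraries of a group lay close together, and the groups were far apart. At CT1 it had 427, 436, 455 and 473 CPM in KO libraries, against 171, 182, 195 and 197 CPM in WT libraries. At CT10 it had 407, 417, 429.8 and 442 CPM in KO libraries, against 168, 199, 207 and 207 CPM in WT libraries, of which 1 lay below the other 3. Over all times Tef averaged 427 ± 21.3 CPM in KO and 189 ± 12.6 CPM in WT libraries (SD, n = 16 each), a log2 fold change of 1.17 (SE 0.035, adjusted p = 3.61e-21). That gave Tef the smallest p-value of the 17871 genes tested for the mean difference between genotypes, while Dbp ranked 3, Hlf 11 and Nfil3 34. By size of the difference, among 1765 genes called higher in KO, Dbp ranked 29, Hlf 76 and Tef 84. Nfil3 ranked 26 by size among 1144 genes called lower. At CT10 these ranks were 307 for Dbp, 344 for Hlf and 638 for Tef of 1286, and 76 for Nfil3 of 539. The log2 fold change of Tef was 1.14 at CT19, 1.16 at CT22 and 1.27 at CT1, with 1.12 at CT10 (adjusted p between 1.83e-13 and 3.34e-12).

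Hlf (ENSMUSG00000003949, chromosome 11, 90336536 to 90390895, minus strand) encodes hepatic leukemia factor and lies on the same chromosome as Per1, one of the mutated genes; the other 3 lie on chromosomes that carry neither mutated gene. At CT19 Hlf had 109, 145, 146 and 164 CPM in KO libraries, against 57.3, 59.5, 66.7 and 68.8 CPM in WT libraries. At CT22 it had 131, 151, 152 and 156 CPM in KO libraries, against 65.6, 69.2, 72.8 and 77.9 CPM in WT libraries. The lowest KO library stood below the other 3 at both times, yet above every WT library. At CT1 Hlf had 125, 136, 147 and 156 CPM in KO libraries, against 54.3, 62.4, 66.5 and 67.2 CPM in WT libraries. At CT10 it had 145, 147, 152 and 165 CPM in KO libraries, against 43.8, 54.6, 63.3 and 65.5 CPM in WT libraries. CT10 was the time with the highest KO mean and the lowest WT mean of Hlf, the opposite of Dbp. Over all times Hlf averaged 145 ± 14.5 CPM in KO and 63.5 ± 8.17 CPM in WT libraries (SD, n = 16 each), a log2 fold change of 1.20 (SE 0.056, adjusted p = 1.31e-16). At the single times it was 1.16 at CT19, 1.05 at CT22 and 1.17 at CT1, with 1.42 at CT10 (adjusted p between 3.67e-10 and 2.08e-07).

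Nfil3 (ENSMUSG00000056749, chromosome 13, 52967209 to 52981073, minus strand) encodes the repressor of the D-box, also known for its part in the development of natural killer cells. At CT19 it had 6.42, 6.55, 11.3 and 14.98 CPM in KO libraries, against 26.3, 28.9, 30.2 and 31.4 CPM in WT libraries. At CT22 it had 7.90, 8.77, 10.5 and 10.7 CPM in KO libraries, against 24.0, 25.9, 26.2 and 26.2 CPM in WT libraries. The CT19 KO libraries were the most scattered group of this gene, and still lay below every WT library of that time. At CT1 it had 6.84, 8.74, 8.99 and 10.2 CPM in KO libraries, against 21.2, 24.5, 26.1 and 30.6 CPM in WT libraries. At CT10 it had 6.18, 6.59, 8.95 and 9.32 CPM in KO libraries, against 16.5, 17.3, 19.4 and 20.9 CPM in WT libraries. The highest KO library of any time, at 14.98 CPM at CT19, lay below the lowest WT library of any time, at 16.5 CPM at CT10, where all 4 WT libraries were lower than those of the other times. Over all times Nfil3 averaged 8.93 ± 2.31 CPM in KO and 24.7 ± 4.59 CPM in WT libraries (SD, n = 16 each), a log2 fold change of -1.45 (SE 0.095, adjusted p = 4.7e-13). It was -1.57 at CT19, -1.44 at CT22 and -1.56 at CT1, with -1.25 at CT10 (adjusted p between 1.93e-06 and 5.41e-05). The smallest count of any of the 4 genes in any library was 172 reads, of Nfil3, so all 4 were well above the count minimum of 10.

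The call was thus made for 4 of 4 genes in each of the 5 comparisons of genotype. For the mean of the times, 16.3% of all tested genes were called, 9.88% higher and 6.4% lower in KO. At CT19 5.19% were, at CT22 1.53%, at CT1 1.58% and at CT10 10.2%. Genes called higher in KO at all 4 times made up 0.386% of those tested, and genes called lower at all 4 times 0.0951%. Library totals ran from 23833604 to 34582742 counted reads. The WT groups enter both the comparison of genotypes and the comparison of times within WT, so these are not separate lines of evidence.

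**Figure D2:**
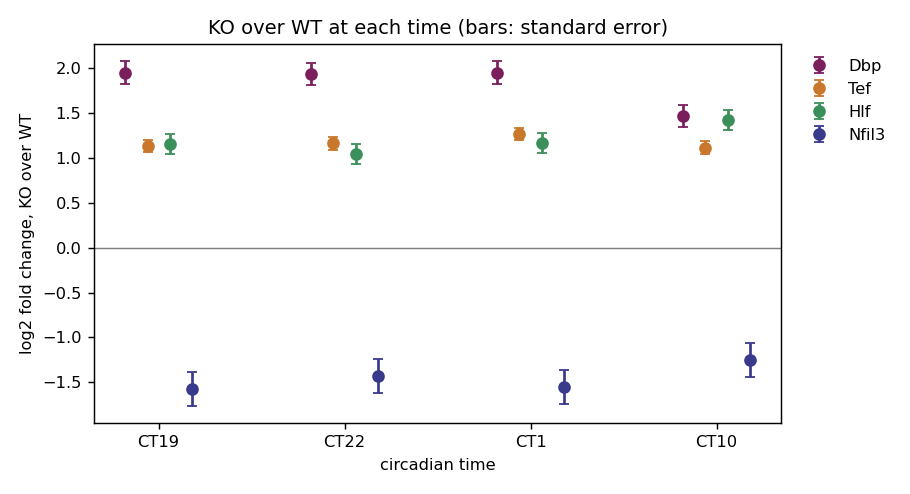
Log2 fold change of KO over WT (y axis, points, with bars of 1 standard error) for each D-box factor at each circadian time (x axis). Dbp lies between 1.47 and 1.95, Tef between 1.12 and 1.27, Hlf between 1.05 and 1.42 and Nfil3 between -1.57 and -1.25.

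Several measured features of the libraries differed between genotypes or times. The rod genes Gnat1, which encodes rod transducin, and Pde6b, which encodes a rod phosphodiesterase subunit, mark the labelled cell type and were abundant in every library, at 13256 to 25042 CPM and 2840.4 to 4800 CPM. The libraries also held RNA of other retinal cells. All 33 genes of a list of bipolar, Müller, amacrine, horizontal and ganglion cell markers had reads in every library, summing to 1119 to 2425 CPM in KO and 738 to 1751 CPM in WT libraries. The inner retina level used below is the mean log2 CPM of the bipolar, Müller and amacrine markers of this list alone. It was 4.65 ± 0.30 in KO and 4.21 ± 0.49 in WT (SD, n = 16 each), and it was lowest in WT at CT10, at 3.63. The 5 cone markers summed to 1417 to 2700.3 CPM in KO and 1899.7 to 2990 CPM in WT libraries. Their mean log2 CPM was 8.23 ± 0.22 in KO and 8.57 ± 0.19 in WT (SD, n = 16 each). For the mean of the times, 3 of the 5 were called lower in KO, with a median log2 fold change of -0.33. Of 7 rod markers, 1 was called higher and 2 lower, with a median of -0.10. Over all tested genes 9.88% were called higher and 6.4% lower. The part of the cone and rod differences in the results for the 4 factors was not tested. All 6 lens markers had reads in every library, summing to 118 to 4015 CPM in KO and 45.8 to 6248 CPM in WT libraries. At CT10 their mean log2 CPM was 4.59 ± 1.4 in KO and 7.31 ± 0.9 in WT (SD, n = 4 each). At CT1 it was 5.94 ± 1.7 in KO and 7.67 ± 0.9 in WT, and at CT22 4.25 ± 0.9 in KO and 4.73 ± 1.8 in WT. At CT19 it was higher in KO, at 4.87 ± 1.4, against 3.91 ± 1.8 in WT. With the inner retina level as a covariate, all 4 genes were still called at all times. The log2 fold change over the mean of the times was then 1.68 for Dbp, 1.13 for Tef, 1.06 for Hlf and -1.55 for Nfil3. At CT10, where the inner retina level differed most, it was 1.10 for Dbp, 1.02 for Tef, 1.09 for Hlf and -1.48 for Nfil3. Bulk libraries of this kind cannot tell fewer cells of a type from less RNA per cell. Reads of the mutated genes themselves were higher in KO, at 170 to 323 CPM for Per1, against 94.4 to 146 CPM in WT, and at 168 to 267 CPM for Per2, against 15.2 to 44.3 CPM in WT. Counts summed over a gene do not show whether the deleted part is missing, so they do not check the genotype labels.

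Differences over time were tested next, within each genotype. Within KO libraries, 0 of the 4 genes were called in the test of any difference among the 4 times, with adjusted p-values from edgeR between 0.786 and 0.935. None had an unadjusted p under 0.05, and DESeq2 also called 0. Of all tested genes 0.0056% were called in KO. None of the 24 comparisons of a pair of times in KO was called, 4 genes over 6 pairs of times. Of all tested genes 0.056% were called between CT1 and CT19 in KO, 0.0056% between CT10 and CT19 and 0 between the other pairs. The largest size of a log2 difference of the 4 genes was 0.338. Within WT libraries, 0 of the 4 genes were called in the same test, where 14.6% of all tested genes were, but 3 had an unadjusted p under 0.05. The highest and lowest WT times of Nfil3 differed by 0.66 on the log2 scale (adjusted p = 0.064), those of Dbp by 0.43 (adjusted p = 0.0576), those of Hlf by 0.33 (adjusted p = 0.167) and those of Tef by 0.07 (adjusted p = 0.827). DESeq2 called Dbp (adjusted p = 0.0335) and Nfil3 (adjusted p = 0.0272), so the call for these genes rested on the test used.

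Between pairs of times in WT, 3 of 24 comparisons were called, all involving CT10. Nfil3 was lower at CT10, at 18.5 ± 1.98 CPM, than at CT19, at 29.2 ± 2.19 CPM (SD, n = 4 each; log2 -0.66, SE 0.184, edgeR adjusted p = 0.0146). Dbp was higher at CT10, at 48.5 ± 8.44 CPM, than at CT1, at 36.0 ± 6.41 CPM (SD, n = 4 each; log2 0.43, SE 0.125, edgeR adjusted p = 0.036). Hlf was lower at CT10, at 56.8 ± 9.86 CPM, than at CT22, at 71.4 ± 5.24 CPM (SD, n = 4 each; log2 -0.33, SE 0.111, edgeR adjusted p = 0.0401). Of all tested genes 16.1% were called for CT10 against CT19, 16.9% for CT10 against CT22, 5.8% for CT10 against CT1 and 0 for the pairs without CT10. The calls of Dbp and of Hlf were each lost when any 1 of 6 of the 32 libraries was left out, and that of Nfil3 in none of these fits. The WT inner retina level moved with time too, with a mean log2 CPM of 4.38 at CT19, 4.66 at CT22 and 4.18 at CT1, with 3.63 at CT10. With that level as a covariate the Hlf difference between CT10 and CT22 was -0.002 and not called, and that of Nfil3 between CT10 and CT19 was -0.50 and not called. The Dbp difference between CT10 and CT1 was 0.63 with it (edgeR adjusted p = 0.0024), and Dbp at CT10 was then also called against CT19 (0.59, adjusted p = 0.00326) and CT22 (0.70, adjusted p = 0.00382). The WT lens level moved with time as well, with a mean log2 CPM of 3.91 at CT19, 4.73 at CT22 and 7.67 at CT1, against 7.31 at CT10, and 3 of the 6 lens markers were called higher at CT10 than at CT19. Of 7 rod markers 3 were called higher at CT10 than at CT19, with a median log2 difference of 0.21. With the inner retina and lens levels both as covariates, Dbp between CT10 and CT1 was 0.62 and called (edgeR adjusted p = 0.00185), its differences between CT10 and CT19 or CT22 were not called, Nfil3 between CT10 and CT19 was -0.46 (adjusted p = 0.415) and Hlf between CT10 and CT22 was 0.045 (adjusted p = 0.926).

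A test of whether the genotype difference changed with time, the interaction term of the same fit, called 0 of the 4 genes, where 1.62% of all tested genes were called. Its largest departure was that of Dbp, whose KO to WT difference varied by 0.49 on the log2 scale between times (unadjusted p = 0.0201 in edgeR, adjusted p = 0.21). The adjusted p was 0.697 for Tef, 0.433 for Hlf and 0.794 for Nfil3. With the inner retina level as a covariate Dbp was called in this test, with a range of 0.82 between times (adjusted p = 0.0277), and with the lens level added it was not (0.73, adjusted p = 0.228). DESeq2 called none of the 4 (adjusted p = 0.129 for Dbp).

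In order of mean level, Dbp went up through WT CT1, CT22, CT19 and CT10 and then KO CT10, CT1, CT22 and CT19. Tef went up through WT CT1, CT19, CT22 and CT10 and then KO CT19, CT10, CT22 and CT1. Hlf went up through WT CT10, CT1, CT19 and CT22 and then KO CT19, CT1, CT22 and CT10. Nfil3 had the KO groups at the low end, in the order CT10, CT1, CT22 and CT19, followed by WT CT10, CT22, CT1 and CT19. In each order the libraries of the neighbouring KO and WT groups did not overlap. Among neighbouring groups of the same genotype, only those of Nfil3 in WT at CT10 and CT22 did not overlap. They ran from 16.5 to 20.9 CPM and from 24.0 to 26.2 CPM. No pair of neighbouring groups of the same genotype was called.

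The 4 genes also differed in how tightly their libraries agreed. The SD of log2 CPM within groups was 0.084 for Tef, 0.166 for Hlf, 0.187 for Dbp and 0.282 for Nfil3, beside a median of 0.262 over all tested genes. For Nfil3 it was 0.370 in KO and 0.148 in WT libraries, whereas for Dbp it was 0.141 in KO and 0.225 in WT libraries. Tef varied by 0.061 in KO and 0.103 in WT libraries, and Hlf by 0.160 in KO and 0.171 in WT libraries. Once group means were taken out, the deviations of the 32 libraries had a Pearson r of 0.52 between Tef and Hlf, 0.47 between Dbp and Tef and 0.36 between Dbp and Hlf. The signs of these 3 pairs were positive in each genotype taken alone. For Nfil3 the r was 0.55 in KO and -0.27 in WT with Hlf, 0.17 in KO and -0.29 in WT with Tef, and 0.06 in KO and -0.13 in WT with Dbp (n = 16 each). Most of these values were small, and whether their signs differ between genotypes was not tested. With the deviations of the inner retina level, the r was 0.19 in KO and 0.79 in WT for Dbp, 0.14 in KO and 0.45 in WT for Tef, and 0.65 in KO and 0.56 in WT for Hlf. For Nfil3 it was 0.60 in KO and -0.40 in WT. These values share libraries and scaling and are given as a description.

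Per kb of annotated exon, the scale on which different genes can be set beside each other, Tef had the highest level in both genotypes, at 54.3 ± 2.71 CPM per kb in KO and 24.1 ± 1.60 CPM per kb in WT libraries (SD, n = 16 each). Dbp had 47.9 ± 4.71 CPM per kb in KO and 13.6 ± 2.48 CPM per kb in WT. Hlf had 21.8 ± 2.16 CPM per kb in KO and 9.50 ± 1.22 CPM per kb in WT. The repressor Nfil3 had 4.41 ± 1.14 CPM per kb in KO and 12.2 ± 2.26 CPM per kb in WT. Over all times the repressor was therefore the lowest of the 4 in KO and lay between Hlf and Dbp in WT. Its place beside Dbp in WT differed between times and was not tested. Nfil3 was above Dbp at CT19, at 14.4 against 13.1 CPM per kb, and at CT1, at 12.6 against 12.03 CPM per kb. It was below Dbp at CT22, at 12.6 against 12.9 CPM per kb, and at CT10, at 9.13 against 16.2 CPM per kb. Of the summed level of the 3 activators, Dbp made up 38.6% in KO and 28.6% in WT, Tef 43.8% in KO and 51.2% in WT, and Hlf 17.6% in KO and 20.2% in WT.

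The mean log2 level per kb of the 3 activators minus that of Nfil3 gives 1 value per library for activators against repressor. It was 3.07 ± 0.54 in KO and -0.01 ± 0.12 in WT libraries at CT19, and 3.07 ± 0.14 in KO and 0.24 ± 0.07 in WT libraries at CT22 (SD, n = 4 each). At CT1 it was 3.17 ± 0.27 in KO and 0.14 ± 0.32 in WT libraries, and at CT10 it was 3.33 ± 0.31 in KO and 0.72 ± 0.29 in WT libraries (SD, n = 4 each). The WT values average members on both sides of the repressor, since over the 16 WT libraries the difference from Nfil3 was 1.003 for Tef alone, 0.16 for Dbp alone and -0.35 for Hlf alone. The 16 KO libraries ran from 2.48 to 3.71 and the 16 WT libraries from -0.21 to 1.05, with no overlap. The value is built from the 4 genes tested above and carries no test of its own. It depends on the exon lengths used, which shift both genotypes alike.

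**Figure D3:**
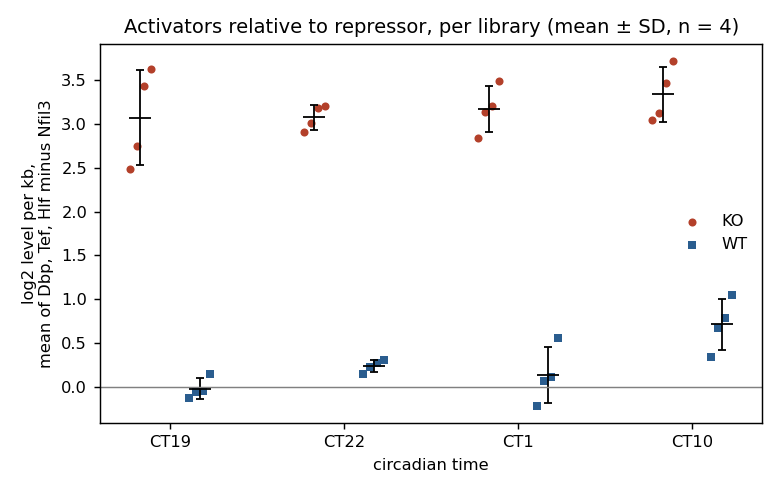
Mean log2 level per kb of Dbp, Tef and Hlf minus that of Nfil3 (y axis) against circadian time (x axis), with 1 point per library (KO circles left of WT squares) and bars for the mean ± SD of 4 libraries. KO libraries lie between 2.48 and 3.71 and WT libraries between -0.21 and 1.05.

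Dbp and Tef each share exon sequence with a gene on the other strand. Sphk2, which encodes a sphingosine kinase, overlaps 539 bases of Dbp exon, 18% of its length. It averaged 17.3 ± 1.78 CPM in KO and 19.4 ± 1.77 CPM in WT libraries (SD, n = 16 each; log2 fold change -0.17, SE 0.045, edgeR adjusted p = 0.0101), which is the opposite direction from Dbp. Gm17597, annotated as antisense to Tef, overlaps 193 bases of it, 2.45% of its exon length. It averaged 4.60 ± 0.801 CPM in KO and 1.21 ± 0.323 CPM in WT libraries (SD, n = 16 each; log2 fold change 1.95, SE 0.11, edgeR adjusted p = 2.03e-14), in the direction of Tef. The strand setting of the count is not given in the sources used here, so reads of Tef and of Gm17597 may not be told apart in the overlap. In KO libraries Gm17597 had 4.60 CPM where Tef had 427 CPM.

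The factors known to act on these 4 genes, or to be acted on by them, were described next from a list of 15 clock genes, which includes the mutated Per1 and Per2. For the mean of the times, 10 of the 15 rose in KO, 1 fell and 4 were not called, with a median log2 fold change of 0.72, beside -0.00 over all tested genes. Over all tested genes 9.88% rose and 6.4% fell. Genes with E-boxes that the PER and CRY proteins are known to repress were among those that rose. Ciart, which encodes a repressor of CLOCK and BMAL1, averaged 15.6 ± 2.56 CPM in KO and 2.19 ± 0.587 CPM in WT (SD, n = 16 each; log2 fold change 2.84). Per3 averaged 351 ± 51.8 CPM in KO and 147 ± 29.2 CPM in WT (log2 fold change 1.26), and Cry2 158 ± 7.97 CPM in KO and 69.4 ± 9.37 CPM in WT (log2 fold change 1.20). Cry1 rose less, with a log2 fold change of 0.46, and the E-box repressors Bhlhe40 and Bhlhe41 had log2 fold changes of 1.06 and 0.82.

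Nuclear receptors that compete for ROR elements are known to act on Nfil3 in other tissues, where REV-ERB proteins repress it and ROR proteins activate it. Their part in the Nfil3 difference between KO and WT was not tested. Nr1d1, which encodes REV-ERB alpha, averaged 291 ± 26.7 CPM in KO and 182 ± 21.04 CPM in WT libraries (SD, n = 16 each; log2 fold change 0.68, edgeR adjusted p = 1.42e-11). Nr1d2, which encodes REV-ERB beta, averaged 300.4 ± 26.3 CPM in KO and 182 ± 18.8 CPM in WT libraries (SD, n = 16 each; log2 fold change 0.72, edgeR adjusted p = 2.56e-14). Arntl, also known to be repressed through ROR elements, was the one gene of the list that fell, to 94.7 ± 4.76 CPM in KO, against 159 ± 7.47 CPM in WT (SD, n = 16 each; log2 fold change -0.74, edgeR adjusted p = 9.92e-18). Rora and Rorb, which encode ROR proteins, had log2 fold changes of -0.06 and -0.02 and were not called. Clock, at -0.09, and its relative Npas2, at -0.21, were not called. With the inner retina level as a covariate, all 11 called genes were still called for the mean of the times, and 10 of the 12 at CT10. The covariate fit called 800 and 213 of 17871 tested genes in these comparisons.

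**Figure D4:**
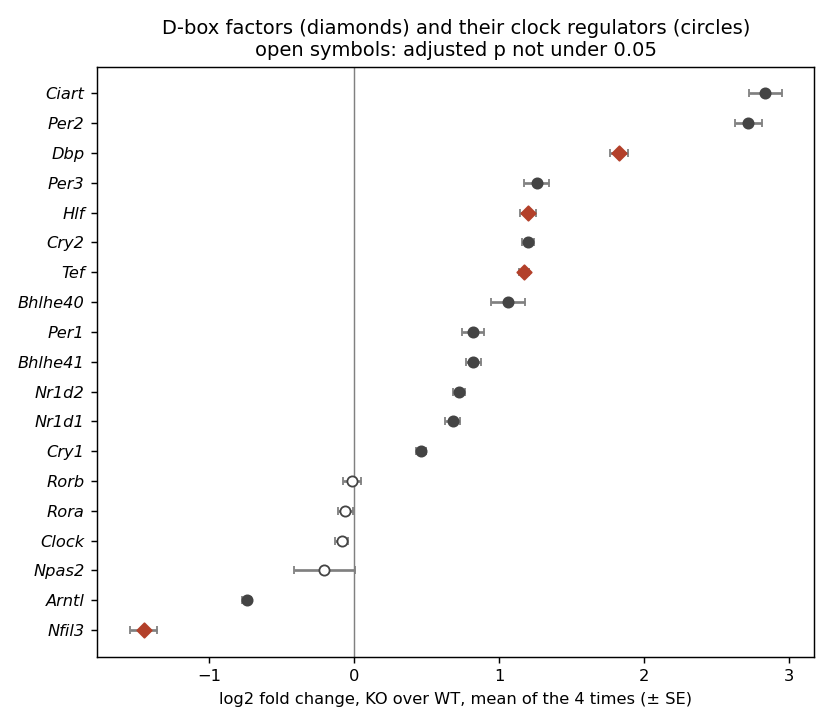
Log2 fold change of KO over WT for the mean of the 4 times (x axis, with bars of 1 standard error) of the 4 D-box factors (diamonds) and of 15 clock genes (circles), listed from highest to lowest down the y axis, with open circles where the adjusted p was not under 0.05. Nfil3, at -1.45, and Arntl, at -0.74, are the called genes left of 0.

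The call was made for 11 of these 15 genes at CT19, for 10 each at CT22 and CT1 and for 12 at CT10. The shares over all tested genes were 5.19% at CT19, 1.53% at CT22 and 1.58% at CT1, against 10.2% at CT10. Over time within KO 0 of the 15 were called, beside 0.0056% of all tested genes, and within WT 4 were, Per2, Cry2, Bhlhe40 and Rorb, beside 14.6%. The interaction was called for Rorb alone (edgeR adjusted p = 0.0154), beside 1.62% of all tested genes. For the mean of the times, 6 of the 8 listed genes known to carry D-boxes rose. These were Per1, Per2, Per3, Cry1, Nr1d1 and Nr1d2, of which Per1 and Per2 are the mutated genes. None fell, and Rora and Rorb were not called. Over all tested genes 9.88% rose and 6.4% fell. The median log2 fold change of the 8 genes was 0.70, beside -0.003 over all tested genes.

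Output genes known from liver, kidney or brain to depend on the PAR family or on NFIL3 were taken as a list of 18. Of these, 12 had enough counts to be tested. Ces3a, Cyp2a5, Cyp2b10, Cyp3a11, Cyp7a1 and Fgf21 did not pass the count filter. For the mean of the times 4 of the 12 rose, 1 fell and 7 were not called, with a median log2 fold change of 0.21. Over all tested genes 9.88% rose and 6.4% fell, with a median of -0.00. Pdxk, which encodes the kinase that makes active vitamin B6 and is a known PAR target in brain, averaged 73.9 ± 6.92 CPM in KO and 55.9 ± 6.58 CPM in WT libraries (SD, n = 16 each; log2 fold change 0.41, edgeR adjusted p = 1.99e-07). Slc5a6, which encodes a vitamin transporter, averaged 21.6 ± 2.70 CPM in KO and 18.7 ± 2.001 CPM in WT (SD, n = 16 each; log2 fold change 0.21, edgeR adjusted p = 0.0153). Gstt1, which encodes a glutathione transferase, averaged 4.30 ± 1.05 CPM in KO and 3.02 ± 1.15 CPM in WT (SD, n = 16 each; log2 fold change 0.56, edgeR adjusted p = 0.00179). Abcb1a, which encodes a drug efflux pump, averaged 1.29 ± 0.492 CPM in KO and 0.717 ± 0.492 CPM in WT (SD, n = 16 each; log2 fold change 0.93, edgeR adjusted p = 0.0135). Por, which encodes the electron donor of cytochromes P450, was the one that fell, to 71.4 ± 5.45 CPM in KO, against 80.1 ± 8.89 CPM in WT (SD, n = 16 each; log2 fold change -0.16, edgeR adjusted p = 0.00702).

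The 7 genes that were not called, Alas1, Nr1i3, Ppara, Lpl, Gsta3, Acot1 and Acot2, had log2 fold changes between -0.60 (Ppara, SE 0.649) and 0.55 (Gsta3, SE 0.223). For the mean of the times, the called output genes had log2 fold changes of at most 0.93 in size, below those of the 4 factors. At CT10 the log2 fold change of Abcb1a was 2.12 (SE 0.533), larger in size than those of the 4 factors at that time. That of Gstt1 at CT10 was 1.25 (SE 0.248). Only Pdxk was called at CT19 and CT1, none was at CT22, and Pdxk, Gstt1 and Abcb1a were at CT10. Over all tested genes the share called was 5.19% at CT19, 1.53% at CT22 and 1.58% at CT1, against 10.2% at CT10. With the inner retina level as a covariate, Pdxk (log2 0.31, adjusted p = 0.000884), Slc5a6 (log2 0.29, adjusted p = 0.0182) and Por (log2 -0.23, adjusted p = 0.00722) were still called for the mean of the times. Gstt1 (log2 0.18, adjusted p = 0.49) and Abcb1a (log2 0.29, adjusted p = 0.623) were not, and at CT10 none of the 12 was. The covariate fit called 800 of 17871 tested genes for the mean of the times, 418 at CT19, 308 at CT1 and 213 at CT10. At CT19 Pdxk lost its call with that covariate (log2 0.27, adjusted p = 0.147) and Por gained one (log2 -0.33, adjusted p = 0.0374), while at CT1 Pdxk was still called (adjusted p = 0.00571).

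The genes whose level followed each factor most closely over the 32 libraries were ranked by Pearson's r of log2 CPM among 10583 genes. The genotypes form separate clusters for all 4 factors, so this measure is mostly one of the genotype difference, and the r of deviations from group means is given beside it. The genes most like Dbp were Tef (0.98, deviations 0.47), Gzmm (0.98, deviations 0.68), Eif3b (0.97, deviations 0.48), Rasl10b (0.97, deviations 0.66) and Ciart (0.96, deviations -0.07). Those most like Tef were Dbp (0.98, deviations 0.47), Rasl10b (0.98, deviations 0.26), Ciart (0.98, deviations 0.38), Eif3b (0.97, deviations 0.12) and Per2 (0.97, deviations 0.43). Tef was thus the gene most like Dbp, and Dbp the gene most like Tef. Those most like Hlf were Cry2 (0.97, deviations 0.36), Tef (0.97, deviations 0.52), Per2 (0.97, deviations 0.26), Nyx (0.96, deviations 0.46) and Eif3b (0.95, deviations 0.03). Those most like Nfil3 were Ndrg1 (0.95, deviations 0.55), Arntl (0.93, deviations 0.33), Tube1 (0.89, deviations -0.07), Top1mt (0.89, deviations 0.14) and Fscn2 (0.87, deviations -0.08). Of the genes named here, Rasl10b and Fscn2 lie on chromosome 11, which also carries the mutated Per1, and Per2 is itself a mutated gene. Nfil3 had 2 genes with an r above 0.9, whereas Dbp had 27, Tef 35 and Hlf 26. Genes with a negative r, such as Dbp (-0.92) and Tef (-0.92) with Nfil3, were not in these counts.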

How the data were processed

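The authors deposited 1 table of raw counts per gene for 32 libraries; per the submitters' processing notes, Trimmomatic 0.32, HISAT2 2.1.0, Cufflinks and HTSeq 0.11 were used with GRCm38.p6. The annotation release, strand setting and treatment of multiply mapped reads are each not given in the sources used here. Per the labels' protocols, RNA came from the RNeasy Micro kit (Qiagen) and libraries from the KAPA mRNA HyperPrep kit. Identifiers were matched to GENCODE vM21 (54165 of 54232), and promoter windows come from RefSeq.

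Counts were filtered with filterByExpr (minimum count 10, minimum total 15), scaled by TMM and tested with edgeR 4.0.16 (R 4.3.3) by a robust quasi-likelihood fit with 1 mean per group (24 residual degrees of freedom, biological coefficient of variation 0.199). DESeq2 1.42.0, other scaling, no filter, a replicate block, single-time fits, each library left out and covariates for inner retina and lens were alternatives. The scripts were tested on simulated data. The text names every tested gene of the clock and output lists and every gene that shares exon bases with a factor, and the genes most like a factor are the 5 with the highest r among genes with an average log2 CPM above 1. No pair of libraries was identical, and replicates differed by 12 to 107 times the counting noise (chi-square per degree of freedom). The 4 genes, the lists and the covariates were chosen with earlier results of these data known, so no list gives independent evidence. The lens covariate was added after marker levels were seen. A further gene each of the clock and rod marker lists is not reported here and is in none of their counts.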

Additional observations from a re-analysis of the deposited data

Results flagged for a closer look

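Within groups of 4 libraries, 2 values of the D-box factors lay far from the others of their group, by a gap over 0.829 of the group's range. Dbp had 29.7 CPM in WT replicate 3 at CT19, below the other 3 libraries at 41.7 to 42.7 CPM. Without it the log2 fold change of KO over WT at CT19 was 1.84, beside 1.95 with it. Nfil3 had 24.0 CPM in WT replicate 3 at CT22, below the other 3 at 25.9 to 26.2 CPM, a small gap in a tight group. Of 40 groups examined 2 were singled out, and chance alone gives about 1 in 20.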

How the results depend on the processing

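Every alternative and all 32 fits that left out 1 library kept the direction and the call of KO against WT for all 4 genes, pooled over time and time by time. Leaving out 1 library moved the pooled log2 fold change between 1.80 and 1.85 for Dbp, 1.15 and 1.18 for Tef, 1.17 and 1.23 for Hlf and -1.52 and -1.41 for Nfil3.

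Differences over time in WT depended on the processing. The test over the 4 times called Dbp with the inner retina covariate (range 0.696), with the lens covariate added (0.623) and with DESeq2 (0.425), and Nfil3 with DESeq2 (0.660). With 1 library left out the range ran from 0.336 to 0.531 for Dbp, called without KO CT22 replicate 4, WT CT19 replicate 3, WT CT1 replicate 1 or WT CT10 replicate 2. It ran from 0.605 to 0.720 for Nfil3, called without KO CT19 replicate 2, 3 or 5. The interaction of Dbp was called with the inner retina covariate (0.818) and not with the lens covariate added (0.728, adjusted p = 0.228). Of the 24 pair comparisons in WT, 1 was called with no filter, 1 with both covariates and between 1 and 4 with a library left out, the lowest without WT CT22 replicate 3. Dbp between CT10 and CT1 lost its call with no filter (0.423) and without WT CT22 replicate 3, WT CT1 replicate 3, 4 or 5 or WT CT10 replicate 1 or 5. Hlf between CT10 and CT22 lost its call with no filter (-0.326), with the replicate block (-0.276) and without KO CT10 replicate 4, WT CT22 replicate 2, 3 or 6 or WT CT10 replicate 2 or 4, and turned to 0.045 with both covariates. Hlf at CT10 turned to 0.081 against CT19 and 0.029 against CT1 with the inner retina covariate, and to 0.137 and 0.033 with both. The cause was not tested.

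The replicate numbers did not pair the samples: deviations of same-numbered KO and WT libraries had a median r of -0.011, over 0.1 in 3 of 12 pairs, and 4 correlated best with their own number. With the replicate block the pooled log2 fold change was 1.848 for Dbp, 1.174 for Tef, 1.221 for Hlf and -1.461 for Nfil3.

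Over the longest annotated transcript instead of all exons, Dbp had 78.04 CPM per kb in KO and 22.1 in WT, Tef 96.94 in KO and 43.02 in WT, and Hlf 25.78 in KO and 11.25 in WT. Over all exons, the log2 level over that of Nfil3 was 3.662 in KO and 1.003 in WT for Tef alone, and 2.339 in KO and -0.348 in WT for Hlf alone. By Spearman's rho, 0 of the 5 genes most like Tef and 1 of 5 for each other factor stayed among the 5 highest.

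Counts over all genes moved more. Those called for the mean of the times numbered 2909, against 800 with the inner retina covariate and 592 with both. At CT19 they numbered 928, against 194 with the libraries of that time alone and 1505 with DESeq2. At CT22 they numbered 273, against 120 and 445 in the same alternatives, and at CT1 282, against 180 and 480. At CT10 they numbered 1825, against 213 with the inner retina covariate and 64 with both. Over time in WT they numbered 2615, against 1289 and 428 with these covariates. In KO it was 1, against 183 with DESeq2, and for the interaction 289, against 13 with both covariates and 913 with DESeq2.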
